A study of Mus musculus with 6 samples.

Results

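The genes described here are 10 products of the intestinal epithelium that lie downstream of the transcription factor NF-kB, namely the CXC chemokines Cxcl1, Cxcl2, Cxcl5 and Cxcl16, the CC chemokine Ccl20, the adhesion molecule gene Icam1, the alarmin Il33, and the NF-kB feedback genes Tnfaip3, Nfkbia and Nfkb2. They were named by symbol and found through their Ensembl identifiers, which gave 10 of the 55416 genes in the deposited table. Of these, 7 passed the filter on low values and were among the 18459 genes tested, and 3 (Cxcl1, Cxcl2 and Cxcl5) had a mean normalized count under 10 over the 6 libraries and were not tested. RNA-Seq was performed on organoids grown from duodenal and jejunal crypts of C57BL/6 mice, all with the genotype label WT, and the organoids received either LDL (50 μg/ml) or PBS for 5 days. LDL, low-density lipoprotein, is the main cholesterol-carrying particle of the blood. Each of 3 mice gave 1 LDL-treated and 1 PBS-treated library, so the comparison asks how the added lipoprotein moved these transcripts in epithelium without the rest of the animal. The animal identifier of mouse 3 is at odds with its WT label, and the counts without both of its libraries are given among the alternatives.

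In resting cells NF-kB dimers are held in the cytoplasm by inhibitor of kappaB (IkB) proteins. Receptors of the tumor necrosis factor, interleukin-1 and Toll-like families activate a kinase complex that marks IkB for degradation, and the freed dimers enter the nucleus and bind kappaB sites near chemokine, cytokine and adhesion genes. The same dimers induce their own brakes, among them the IkB protein itself and the ubiquitin-editing enzyme A20, so that a pulse of signaling ends. In the gut, epithelial chemokines recruit neutrophils, dendritic cells and lymphocytes to sites of injury or infection.

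The sequence before the transcript start was read for each gene from GRCm39 at the start of its GENCODE M39 canonical transcript, because kappaB sites are where NF-kB binds DNA. In the 250 bases before the start, the kappaB consensus was found on either strand in 7 of the 10 genes (Cxcl1, Cxcl2, Cxcl5, Ccl20, Icam1, Tnfaip3 and Nfkbia), and 7.63% of 21757 protein-coding promoters of the same length hold it. A related form, GGG followed by any 2 bases and TTTCC, overlapped the consensus in 6 of these genes, and 1.47% of the promoters hold it. The AP-1 motif TGANTCA was found in Tnfaip3 alone, from base -108 to -102, against 6.18% of the promoters. No match to any of these motifs lay in the window of Cxcl16, Il33 or Nfkb2, which says only that these letters are not in this window. The stretches below are written 5′ to 3′ on the strand of the gene, with the matches to either kappaB motif in capitals. They are shown because the 3 neighbouring chemokine genes on chromosome 5 carry the same run of bases, while Ccl20, Icam1 and Nfkbia each carry their own version. The stretches lie at chr5:91038995-91039063 (Cxcl1, plus strand), chr5:91051641-91051709 (Cxcl2, plus), chr5:90907109-90907159 (Cxcl5, plus), chr1:83094387-83094436 (Ccl20, plus), chr9:20926422-20926458 (Icam1, plus) and chr12:55539433-55539481 (Nfkbia, minus), all outside the annotated span of the gene itself.
Cxcl1: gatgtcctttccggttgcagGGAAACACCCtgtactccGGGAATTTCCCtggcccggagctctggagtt
Cxcl2: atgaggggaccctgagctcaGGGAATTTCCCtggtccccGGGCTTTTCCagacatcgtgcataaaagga
Cxcl5: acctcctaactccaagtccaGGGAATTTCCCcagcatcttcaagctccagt
Ccl20: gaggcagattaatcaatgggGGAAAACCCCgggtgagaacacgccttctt
Icam1: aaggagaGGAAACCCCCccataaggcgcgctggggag
Nfkbia: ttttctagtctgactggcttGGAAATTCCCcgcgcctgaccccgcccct

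In Cxcl1, Cxcl2 and Cxcl5 the consensus starts at base -61, -69 and -108 and matches on both strands, 1 base apart. The other capital stretch of Cxcl1 (from base -79) and of Cxcl2 (from base -50) matches the related form alone. In Ccl20, Icam1 and Nfkbia the match is on the opposite strand, from base -80, -243 and -29. These positions describe letters, and binding was not measured in these libraries.

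**Figure D1:**
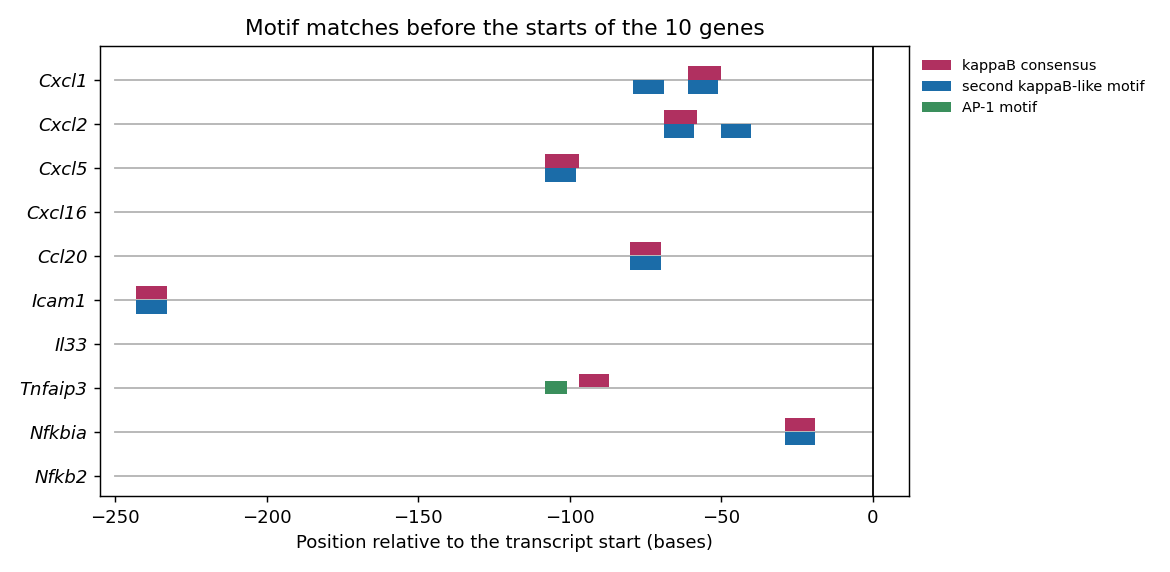
Positions of motif matches in the 250 bases before the start of each of the 10 genes, in bases from the transcript start (0, black line). Upper bars mark the kappaB consensus, lower bars the related kappaB form and the middle bar the AP-1 motif of Tnfaip3; Cxcl16, Il33 and Nfkb2 have none.

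Between 22061545 and 31073360 reads per library lay on genes. Values below are the deposited normalized counts, that is, reads per gene divided by 1 size factor per library, given for mice 1, 2 and 3 in that order, and fold changes are on the log2(normalized count + 1) scale, which understates changes of low genes. Here, called means that limma's adjusted p-value was under 0.05 while the groups also differed by over 1.5-fold. With LDL and PBS as independent groups, 0 of the 7 tested genes were called, beside 0.878% of all tested genes called higher and 0.395% called lower; 4 of the 7 had an unadjusted p-value under 0.05 in limma, beside 19.69% of all genes. With the mouse as a block, which compares the libraries of the same animal, 3 of the 7 were called higher (Cxcl16, Icam1 and Il33), beside 5.68% of all genes, and 0 lower, beside 3.46%. DESeq2 called 3 of the 7 higher without the block (Cxcl16, Il33 and Tnfaip3), beside 4.59% of the genes it gave an adjusted p-value, and 3 with it (Cxcl16, Icam1 and Il33), beside 5.53%. By edgeR, 0 were called without the block, beside 1.01% of all genes called higher, and 4 with it (Cxcl16, Icam1, Il33 and Tnfaip3), beside 6.34%. The mean was higher with LDL for each of the 7 genes, with a median log2 fold change of 1.12 against -0.016 over all genes tested.

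The values are also given by mouse, where each animal has 1 library per treatment, so that a difference between animals cannot be told apart from a difference between single cultures or libraries. All LDL values lay above all PBS values for 2 of the 7 genes, Cxcl16 and Il33, beside 11.9% of all genes tested. Within a mouse, the LDL library was the higher one in all 3 mice for 4 genes (Cxcl16, Ccl20, Icam1 and Il33), beside 24.2% of all genes, and in mice 1 and 3 only for Tnfaip3, Nfkbia and Nfkb2. The median log2 difference of the 7 genes was 1.62 in mouse 1, 0.37 in mouse 2 and 1.42 in mouse 3, while the median of all genes tested lay between -0.039 and 0.0014 in each mouse. The LDL library of mouse 2 held the lowest of the 3 LDL values for 7 of 7 genes. That library was the lowest for 54.03% of the 8789 genes with a higher mean under LDL. Without it, 6 of the 7 genes, all but Ccl20, were called higher by limma, beside 6.39% of all genes, and without any 1 of the other 5 libraries 0 of the 7 were called. The LDL libraries also differed in the number of genes with at least 1 read, which was 35781, 29870 and 32751, against 29285 to 30018 in the PBS libraries; what part this has in the differences was not tested.

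**Figure D2:**
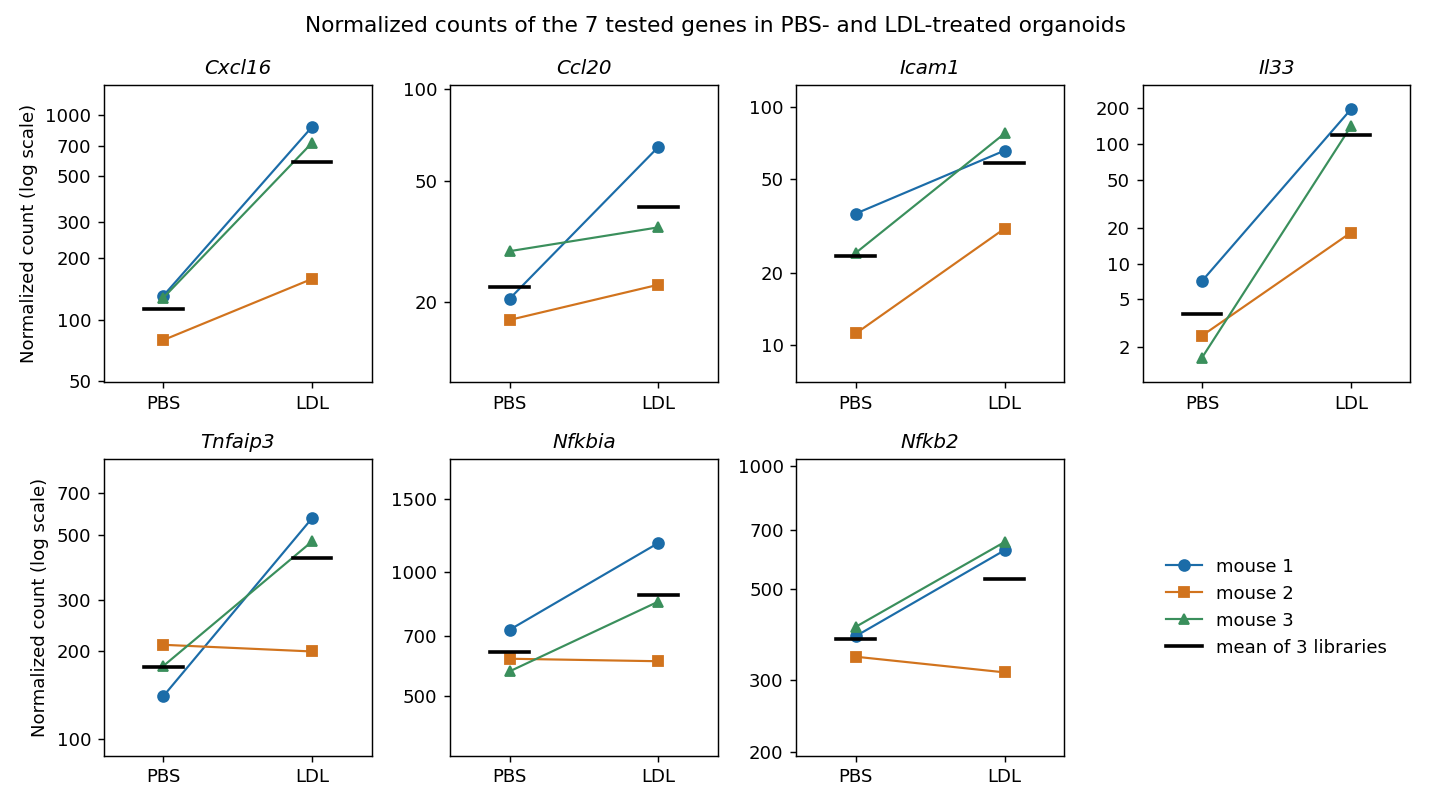
Normalized counts (log scale, a separate range for each gene) of the 7 tested genes by treatment. Each line joins the libraries of 1 mouse and black bars are means of 3 libraries; the line of mouse 2 (squares) is the lowest at LDL in every panel and is nearly flat or falls slightly for Tnfaip3, Nfkbia and Nfkb2.

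Cxcl16 encodes a chemokine with a membrane-anchored form and a shed form, which attracts CXCR6-bearing T cells and also binds oxidized LDL. The gene lies on chromosome 11 of GRCm39 (70344517 to 70352620, minus strand). Its normalized counts were 873, 158 and 730 with LDL and 131, 79.5 and 128 with PBS. Mice 1 and 3 started from similar PBS values and were far above them with LDL, and the LDL value of mouse 2 lay only a little above the PBS values of the others. The means were 587 ± 378 with LDL and 113 ± 28.7 with PBS (SD, n = 3). On the log2 scale this was a difference of 2.07 (standard error 0.59, 95% interval 0.70 to 3.44), and Cxcl16 was not called without the block (adjusted p = 0.120 from limma). With the block the interval narrowed to 1.38 to 2.77 and it was called (adjusted p = 0.00435 from limma). Without both libraries of mouse 3, the block fit gave a log2 fold change of 1.86 and did not call Cxcl16 (adjusted p = 0.0910 from limma). Within a mouse the ratio of LDL to PBS was 6.68 (5.53 to 8.13) in mouse 1, 1.99 (1.49 to 2.69) in mouse 2 and 5.71 (4.81 to 6.81) in mouse 3. The ranges in parentheses are 95% exact binomial intervals that cover counting error only, and those of mice 1 and 3 overlap while that of mouse 2 lies below both. As the LDL and PBS values did not overlap, the exact two-sided permutation test gave p = 0.1, the smallest value that 3 against 3 allows.

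Cxcl16 is annotated over exons of Med11, a subunit of the Mediator complex (2213 shared bases), and of Zmynd15 (2132 shared bases), both on the opposite strand. The kit used marks strand, but the strand setting of the counting is not given in the sources used here. Med11 had normalized counts of 171 to 274 with LDL and 202 to 234 with PBS, a log2 fold change of 0.07. Zmynd15 had 59.8, 12.7 and 41.0 with LDL and 7.15, 1.24 and 14.7 with PBS, and was called with the block (log2 fold change 2.31, adjusted p = 0.00689 from limma) but not without it (adjusted p = 0.168). Zmynd15 followed the order of Cxcl16 across the LDL libraries at a level far below it, and whether reads of Cxcl16 were assigned to it was not tested.

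Ccl20, the ligand of CCR6, is made by the epithelium over lymphoid follicles, where it draws dendritic cells and B cells. It lies on chromosome 1 (83094487 to 83096888, plus strand). Its normalized counts were 64.6, 22.7 and 35.1 with LDL and 20.4, 17.4 and 29.3 with PBS. Mouse 1 was the highest with LDL, while the LDL value of mouse 2 lay inside the PBS range, so the groups overlapped. The means were 40.8 ± 21.5 and 22.4 ± 6.19 (SD, n = 3), and the log2 fold change of 0.75 had an interval of -0.20 to 1.69 (adjusted p = 0.361 from limma). Ccl20 was also not called with the block, where the interval was -0.0047 to 1.496 (adjusted p = 0.169 from limma). The within-mouse ratio was 3.17 (1.86 to 5.59) in mouse 1, 1.31 (0.654 to 2.72) in mouse 2 and 1.198 (0.749 to 1.93) in mouse 3. Only in mouse 1 did the counting interval lie above 1, and no comparison of the ratios between mice was tested. The summed normalized counts of 8 markers of M cells, the antigen-sampling cells of the same epithelium, were 3267 to 4493 with LDL and 2382 to 3181 with PBS. The markers did not move together: of the 6 tested, 4 had a higher and 2 a lower mean log2 value with LDL, with Anxa5 called higher and Ccl9 lower by limma with the block. The defining marker Gp2 was near 0 (mean normalized counts of 0.407 with LDL and 0.340 with PBS), and what part these cells have in the Ccl20 values was not tested. In bulk organoids, fewer or more cells of a type and less or more RNA per cell cannot be told apart.

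Cxcl1, Cxcl2 and Cxcl5 encode neutrophil attractants that signal through CXCR2, and all were near the limit of detection. Cxcl1 (chromosome 5, 91039094 to 91040974) held 6, 2 and 25 reads with LDL and 5, 0 and 5 with PBS. Cxcl2 (chromosome 5, 91051730 to 91053797) held 2, 1 and 1 reads with LDL and 0 in each PBS library, where a count of 0 allows up to 3 reads. Cxcl5 (chromosome 5, 90907186 to 90909483) held 4, 3 and 0 reads with LDL and 0, 1 and 1 with PBS. The LDL library of mouse 3 held more Cxcl1 reads than any other library. The within-mouse ratio of Cxcl1 was 5.14 (1.93 to 17.2) in mouse 3 and 1.43 (0.365 to 5.94) in mouse 1, and mouse 2 had 0 PBS reads. With no filter on the mean, none of these 3 genes was called (adjusted p = 0.605, 0.310 and 0.724 from limma). Cxcl3, their close relative, held 0 to 2 reads in every library. The genes that carry the shared kappaB run printed above had the lowest mean levels of the 10 with LDL, per kilobase of exon.

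Il33 encodes an alarmin of the interleukin-1 family, a nuclear protein that is released from damaged barrier cells and acts through the receptor ST2, the product of Il1rl1. It lies on chromosome 19 (29902483 to 29938933, plus strand). Its normalized counts were 196, 18.2 and 141 with LDL and 7.15, 2.48 and 1.63 with PBS. The PBS values rest on 7, 2 and 2 reads and the LDL values on 161, 20 and 169 reads, so the transcript was almost absent without LDL and was present in each LDL library. The means were 119 ± 91.2 and 3.75 ± 2.97 (SD, n = 3). The log2 fold change of 4.27 was the largest of the 7 genes, with a standard error of 0.87 and an interval of 2.26 to 6.28, and Il33 narrowly missed the threshold without the block (adjusted p = 0.0617 from limma). With the block it was called, with an interval of 2.97 to 5.58 (adjusted p = 0.00297 from limma). The within-mouse ratio was 27.5 (13.04 to 69.5) in mouse 1, 7.32 (1.78 to 64.6) in mouse 2 and 86.8 (23.7 to 722.5) in mouse 3. The intervals are wide because few PBS reads stand in the denominator, yet each lies above 1. The exact two-sided permutation test gave p = 0.1, again the smallest possible.

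Icam1 encodes intercellular adhesion molecule 1, to which leukocytes bind through the integrin of the Itgal and Itgb2 products. It lies on chromosome 9 (20926672 to 20940113, plus strand) and shares 511 exon bases with the antisense lncRNA Gm47079. Its normalized counts were 65.9, 30.9 and 77.8 with LDL and 35.7, 11.2 and 24.4 with PBS. The groups overlapped because the PBS value of mouse 1 exceeded the LDL value of mouse 2, but within each mouse the LDL library was the higher one. The means were 58.2 ± 24.4 and 23.8 ± 12.3 (SD, n = 3). The log2 fold change of 1.30 had an interval of 0.17 to 2.43 without the block (adjusted p = 0.198 from limma) and of 0.72 to 1.87 with it, where Icam1 was called (adjusted p = 0.0127 from limma). Without both libraries of mouse 3, the block fit gave 1.13 and did not call Icam1 (adjusted p = 0.181 from limma). The within-mouse ratio was 1.84 (1.18 to 2.91) in mouse 1, 2.77 (1.30 to 6.55) in mouse 2 and 3.18 (2.09 to 4.98) in mouse 3. These 3 intervals overlap one another, and the ratio of mouse 2 was not the lowest, unlike its ratio for Cxcl16 or Il33.

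Tnfaip3 encodes A20, the enzyme that edits ubiquitin chains on signaling adaptors and ends NF-kB activation. It lies on chromosome 10 (18874201 to 18891405, minus strand). Normalized counts of Tnfaip3 were 572, 199 and 476 with LDL and 140, 210 and 178 with PBS. Mice 1 and 3 were high with LDL, and in mouse 2 the LDL value lay slightly under its own PBS value and inside the PBS range. The means were 416 ± 194 and 176 ± 35.1 (SD, n = 3), which gave a log2 fold change of 1.12 (interval 0.26 to 1.98) (adjusted p = 0.156 from limma). Tnfaip3 was not called by limma with the block (adjusted p = 0.0598), but it was called by edgeR with the block (adjusted p = 0.0462) and by DESeq2 without it (adjusted p = 0.00807). The within-mouse ratio was 4.09 (3.37 to 4.99) in mouse 1, 0.948 (0.772 to 1.17) in mouse 2 and 2.68 (2.29 to 3.15) in mouse 3. The 3 intervals do not overlap, so the ratios differed by more than counting error, with no replicate library per mouse and treatment to give the spread between cultures.

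Nfkbia encodes IkB-alpha, the inhibitor that NF-kB resynthesizes after each activation. It lies on chromosome 12 (55535332 to 55539432, minus strand). Normalized counts of 1173, 607 and 846 with LDL stood against 723, 615 and 573 with PBS. Mice 1 and 3 were higher with LDL and mouse 2 was level. The means were 875 ± 285 and 637 ± 77.2 (SD, n = 3), and the log2 fold change of 0.41 did not pass in either fit (adjusted p = 0.361 from limma without the block and 0.0842 with it). The within-mouse ratio was 1.62 (1.47 to 1.79), 0.986 (0.877 to 1.11) and 1.48 (1.34 to 1.63) in mice 1, 2 and 3.

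Nfkb2 encodes p100, which is both an IkB-like inhibitor and the precursor of the p52 subunit of the non-canonical pathway. It lies on chromosome 19 (46292759 to 46303812, plus strand), and 1933 of its exon bases are shared with Psd on the opposite strand, whose log2 fold change was -0.30. It had 623, 313 and 653 normalized counts with LDL and 384, 342 and 405 with PBS. As for Nfkbia, mice 1 and 3 were higher with LDL, and in mouse 2 the LDL value was the lower one. The means were 530 ± 188 and 377 ± 32.1 (SD, n = 3), and the log2 fold change of 0.42 did not pass in either fit (adjusted p = 0.438 from limma without the block and 0.135 with it). The within-mouse ratio was 1.62 (1.42 to 1.86), 0.916 (0.779 to 1.08) and 1.61 (1.44 to 1.81) in mice 1, 2 and 3. For the genes whose groups overlapped, the exact two-sided permutation test gave p = 0.2 (Ccl20, Icam1 and Tnfaip3), 0.3 (Nfkbia) and 0.4 (Nfkb2).

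**Figure D3:**
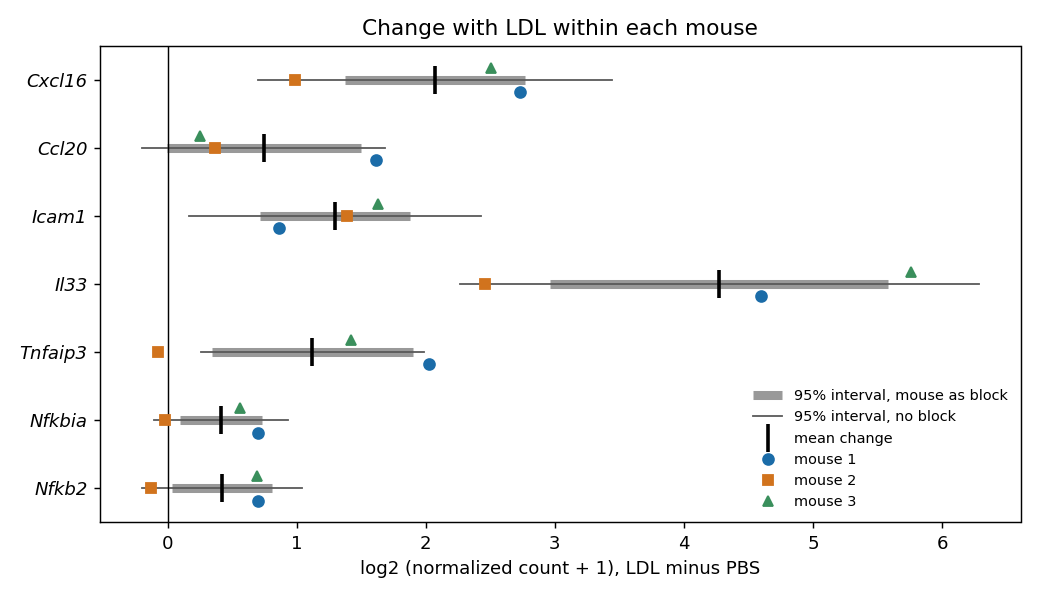
Difference in log2(normalized count + 1) between the LDL- and PBS-treated library of each mouse (colored symbols) and the mean change (black tick) of the 7 tested genes. Thin lines are 95% intervals of limma without a block and thick bars those with the mouse as block; the bars of Cxcl16, Icam1 and Il33 lie farthest from 0, and mouse 2 lies at or slightly under 0 for Tnfaip3, Nfkbia and Nfkb2.

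Levels of different genes were compared per kilobase of merged exon length. In PBS-treated organoids the feedback gene Nfkbia was highest at 329 ± 39.8 normalized counts per kilobase (SD, n = 3), followed by Nfkb2 at 47.7 ± 4.06, Cxcl16 at 22.0 ± 5.61, Tnfaip3 at 18.1 ± 3.62 and Ccl20 at 15.8 ± 4.36. Icam1 (4.79 ± 2.47), Cxcl1 (1.63 ± 1.43), Il33 (0.607 ± 0.480), Cxcl5 (0.362 ± 0.333) and Cxcl2 (0 in each library) were lower. The ranges of neighbours in this order overlapped except between Nfkbia and Nfkb2, between Nfkb2 and Cxcl16, and between Ccl20 and Icam1. With LDL, Nfkbia was still highest at 452 ± 147 per kilobase (SD, n = 3), and Cxcl16, at 115 ± 73.9, stood in place 2 above Nfkb2 at 67.0 ± 23.9. Tnfaip3 (42.8 ± 19.9), Ccl20 (28.7 ± 15.2), Il33 (19.2 ± 14.8), Icam1 (11.7 ± 4.90), Cxcl1 (5.32 ± 5.22), Cxcl5 (1.34 ± 1.29) and Cxcl2 (0.675 ± 0.438) followed. Among neighbours in the LDL order only Nfkbia and Cxcl16 did not overlap.

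Across the 6 libraries the log2 values of the 7 genes were positively correlated in every pair, with Pearson's r from 0.69 (Icam1 with Tnfaip3) to 0.96 (Cxcl16 with Il33). As a description, Cxcl16 was the gene most like each of the other 6, with r of 0.88 at the lowest (Nfkbia). The 6 points share their size factors and the LDL and PBS grouping, so a common response to treatment is part of these values. When the tested genes averaging 100 or more normalized counts were searched, the most alike was Pdia3 for Ccl20 (r = 0.990), Gtf3c2 for Icam1 (0.996), Cdkn1a for Il33 (0.998), Jag1 for Tnfaip3 (0.993), B930086L07Rik for Nfkbia (0.998) and Afg3l2 for Nfkb2 (0.998).

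The receptors that would read these signals were scarce. Ccr6, the receptor of CCL20, held 0 reads in all 6 libraries, and Cxcr2, the receptor of the CXCL1 group, had at most 3.26 normalized counts. Il1rl1 had at most 4.88, and the integrin genes Itgal and Itgb2 at most 8.54 and 6.21. Cxcr6, the receptor of CXCL16, was the exception, with 85.4, 38.2 and 42.6 with LDL and 80.6, 63.4 and 50.5 with PBS (log2 fold change -0.29, adjusted p = 0.694 from limma). Markers of other cells were also low. The leukocyte marker Ptprc had at most 12.2 normalized counts in any library, the stromal marker Col1a1 at most 9.76 and the endothelial marker Pecam1 at most 18.4, against 20049 to 24334 for the epithelial marker Epcam. Over whole lists, the summed normalized counts of 14 leukocyte markers were 141 to 185 with LDL and 135 to 221 with PBS, those of 8 stromal markers 15.5 to 47.6 and 30.9 to 38.5, those of 7 endothelial markers 31.8 to 75.6 and 36.04 to 61.3, and those of 8 epithelial markers 98467 to 130543 and 88060 to 91866. The leukocyte, stromal and endothelial ranges overlapped between treatments, Nkg7 was at 0 in every library, and the lowest epithelial sum with LDL lay above the highest with PBS. The epithelial markers did not all move with their sum: of the 8, all tested, 5 had a higher and 3 a lower mean log2 value with LDL. The sums of 8 tuft cell markers were 191 to 534 and 260 to 361, and of the 6 tested, 2 were higher and 4 lower with LDL.

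The remaining genes of the pathway were taken from 11 lists with 193 genes, of which 116 were tested. Without the block, 2 were called higher (Ier3 and Dusp5) and 1 lower (Ccl28), beside 0.878% and 0.395% of all genes tested. With the block, 33 were called higher and 4 lower, beside 5.68% and 3.46%. The median log2 fold change of the 116 was 0.19, against -0.016 for all genes. By list, 11 of 19 tested targets, 8 of 15 immediate-early genes and 7 of 15 upstream receptors were called higher with the block, as were 1 of 27 kinases and adaptors and 0 of 4 subunits, beside the 5.68% of all genes. The lists were chosen with earlier results of these data known, so these counts are a description and not a test of the lists.

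Of the 30 other chemokines, 5 were tested and had a median log2 fold change of -0.75. Ccl28, a mucosal chemokine for plasma cells, was lower with LDL, at 728, 1221 and 876 against 1751, 1848 and 1779 with PBS, and it fell by 0.96 on the log2 scale (adjusted p = 0.0482 from limma without the block). Ccl9 was called lower with the block alone (218, 336 and 202 with LDL, and 423, 418 and 484 with PBS; log2 fold change -0.84, adjusted p = 0.0165 from limma). Both had the opposite sign to the Cxcl16 and Ccl20 values. Of 22 chemokine receptors, 3 were tested, and Ackr4, a scavenging receptor, was called with the block (log2 fold change 1.15, adjusted p = 0.0226 from limma). Adam10 and Adam17, the proteases that shed CXCL16 and ICAM-1, were the 2 tested of 10 adhesion and shedding genes, with log2 fold changes of 0.17 and 0.10 that were not called.

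In the IL-1 family, 8 of 16 genes were tested and 2 were called higher with the block, beside 5.68% of all genes. Il1rn, the natural antagonist of the interleukin-1 receptor, had 4515, 333 and 3839 with LDL and 234, 24.9 and 196 with PBS. Its log2 fold change was 4.08, and it was called with the block (adjusted p = 1e-05 from limma) but not without it (adjusted p = 0.115). Mouse 2 was the lowest in both treatments, and its LDL value lay above every PBS value. Il18, another epithelial alarm cytokine, was called with the block (log2 fold change 1.23, adjusted p = 0.0286 from limma). No other tested gene of the family was called with the block.

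Among the core components, the 4 other NF-kB subunit genes were not called in either fit. Nfkb1, the precursor of p50, was lower in each mouse, at 1719, 2085 and 1978 with LDL and 2396, 2321 and 2551 with PBS, but its change of -0.33 on the log2 scale was under 1.5-fold (adjusted p = 0.0372 from limma with the block). Of the 5 other IkB genes, Bcl3 alone was called with the block (log2 fold change 0.98, adjusted p = 0.00907 from limma). The 27 tested kinases and adaptors had a median log2 fold change of 0.0018, and Irak2, an adaptor kinase of Toll-like and interleukin-1 receptors, was the 1 called (log2 fold change 0.76, adjusted p = 0.0181 from limma with the block).

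Of the 19 receptor genes upstream of NF-kB, 15 were tested and 7 were called higher with the block, with the largest changes for Tlr2 (1.77), Tlr1 (1.54) and Il17re (1.29 on the log2 scale). Tlr2, a receptor for bacterial lipoproteins, had 45.1, 14.6 and 32.6 with LDL and 15.3, 2.48 and 9.77 with PBS (adjusted p = 0.00915 from limma with the block, 0.184 without it). Of 13 negative regulators, Tnip3 and Zc3h12a were called higher with the block, beside 5.68% of all genes. Tnip3, which encodes a binding partner of A20, had 320, 33.6 and 198 with LDL and 12.2, 2.48 and 13.8 with PBS (log2 fold change 3.89, adjusted p = 0.000282 from limma with the block). The other 11 negative regulators were not called in either fit.

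Of the 28 other NF-kB targets, 19 were tested, with a median log2 fold change of 1.01. Of these, 16 were higher with LDL in all 3 mice, beside 24.2% of all genes tested. Ptgs2, which encodes the prostaglandin-making enzyme cyclooxygenase-2, had 668, 23.6 and 312 with LDL and 18.4, 2.48 and 7.33 with PBS (log2 fold change 4.39, adjusted p = 0.00104 from limma with the block). Tnf, the cytokine that itself activates NF-kB, had 127, 24.6 and 112 with LDL and 16.3, 1.24 and 13.03 with PBS (log2 fold change 3.13, adjusted p = 0.000486 from limma with the block). In both, the LDL library of mouse 2 was the lowest of the 3 but still above every PBS library. Ier3, an early stress response gene, was called without the block (395, 152 and 347 with LDL, and 66.4, 70.8 and 57.0 with PBS; log2 fold change 2.08, adjusted p = 0.0353 from limma). Duox2, an epithelial enzyme that makes hydrogen peroxide, was called with the block (log2 fold change 2.18, adjusted p = 0.00899 from limma). The targets called lower with the block were Pigr, the transporter of IgA (log2 fold change -0.69, adjusted p = 0.0184), and Cd83 (log2 fold change -1.89, adjusted p = 0.00859 from limma). Of the 18 immediate-early genes, 15 were tested and 8 were called higher with the block, led by the AP-1 subunit gene Fosl1 (3.10), the phosphatase gene Dusp1 (1.88) and Atf3 (1.33 on the log2 scale). Dusp5, a phosphatase that acts on ERK, was called without the block (493, 523 and 547 with LDL, and 252, 307 and 259 with PBS; log2 fold change 0.94, adjusted p = 0.0175 from limma). For Dusp5 the LDL value of mouse 2 lay between those of the other mice.

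**Figure D4:**
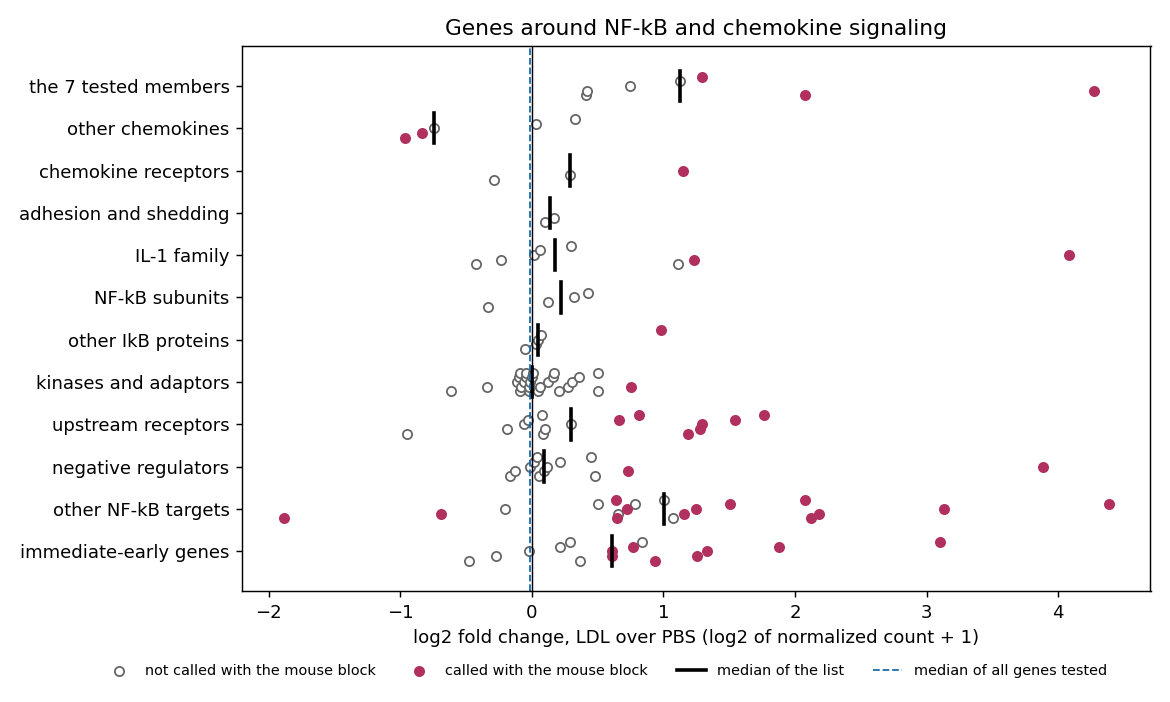
Log2 fold change (LDL over PBS) of each tested gene in the list of the 7 members and in the 11 pathway lists. Filled points were called by limma with the mouse as block, black ticks are list medians and the dashed line is the median of all genes tested. The medians of targets (1.01) and immediate-early genes (0.61) lie to the right. Those of kinases and adaptors (0.0018) and of subunits (0.22) lie nearer 0, with single genes such as Irak2 (0.76) and Traf5 (-0.615) farther out.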

How the data were processed

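Libraries were prepared by the authors from total RNA with a strand-marking kit after removal of ribosomal RNA, sequenced in reads of 101 bases, aligned to GRCm39 with STAR and counted per gene with featureCounts. The organoid crypts came from the small intestine. The values the authors deposited are normalized counts (unit: signal), and 100% of them were whole reads (tolerance 0.001) once multiplied by 1 factor per library; depth was 22061545 to 31073360 reads. Names and positions came from GENCODE M39, which held 54749 of 55416 identifiers.

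Groups and mice were taken from the labels, where each replicate number stands for 1 animal. After removal of the treatment means, Pearson's r across genes between the LDL and PBS library was 0.484, 0.421 and 0.462 for mice 1, 2 and 3, so the numbers pair the samples. Without the block, p-values rest on the spread between the 3 libraries of each treatment, and with it on that between the within-mouse differences. With 1 library per mouse and treatment, this spread joins that of animals, cultures and libraries. The members and gene lists were chosen with earlier results of these data known.

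Log2(normalized count + 1) of the 18459 genes averaging 10 or more was compared with limma 3.58.1 (R 4.3.3; eBayes with a trend, two-sided, Benjamini-Hochberg over all genes). DESeq2 1.42.0 and edgeR 4.0.16 were run on the recovered reads as alternatives, and the steps were tested on simulated data. Python 3.11.15 with scipy 1.17.1, pandas 2.3.3, numpy 2.4.6 and matplotlib 3.10.9 served for the remaining steps. Of each list, the text names the genes called in either limma fit, at most 3 per direction by size of change. Ier3 and Dusp5, called without the block, are named in addition. The text also names the members, their receptors, defining markers, genes annotated over members, and the genes most like a member. The 2 proteases of the shedding list, Nfkb1, Anxa5 and Gp2 were named after their values were seen. Proteins were not compared, and the Tnfaip3 promoter stretch is not printed. Values of a few genes were left out.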

Additional observations from a re-analysis of the deposited data

How the results depend on the processing

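The mean of each of the 7 tested genes stayed higher with LDL in all 138 combinations of gene and alternative, and 22 of these passed the threshold. Under alternatives, the counts of all genes called higher and lower (162 and 73 as reported) and of the members called (0) were 506, 245 and 2 with no filter on the mean, 846, 348 and 3 with DESeq2, and 0, 0 and 0 without both libraries of mouse 3. In fits with the mouse as block they were 1048, 639 and 3 (limma), 981, 511 and 3 (DESeq2), 1171, 588 and 4 (edgeR), and 265, 77 and 1, Il33, without mouse 3 (limma). Leaving out 1 library at a time gave 18 to 1179 higher, 2 to 1133 lower and 0 to 6 members; the highest counts came without the LDL library of mouse 2 and the lowest counts of genes without that of mouse 3 (18 and 2), and without each other library the counts were 27 to 100 and 3 to 44; the cause of these differences was not tested. In limma the block changed the calls of Cxcl16, Icam1 and Il33 and of no other member; for Tnfaip3 it gained the call in edgeR (adjusted p = 0.118 to 0.0462) and lost it in DESeq2 (0.00807 to 0.224), and it gained that of Icam1 in DESeq2 and those of Cxcl16, Icam1 and Il33 in edgeR. Of 228 list medians, 10 moved by more than the spread between replicates. Without the filter, the median of the other chemokines was 0.26 in place of -0.75. Low reads limit Cxcl1, Cxcl2, Cxcl5 and the PBS values of Il33; wide spreads between the LDL libraries limit the other members.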
